A study of Mus musculus with 95 samples.

Results

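The 9 genes described here, Cx3cr1, P2ry12, Tmem119, Csf1r, Aif1, Trem2, Tyrobp, Ctss and Lyz2, are used to recognise microglia, the resident macrophages of the brain, and were followed in the nucleus accumbens of mice. They were chosen by symbol, and each matched 1 of the 55471 features counted in every library. Cx3cr1, P2ry12, Tmem119 and Csf1r were grouped as the 4 homeostatic genes, and Aif1, Trem2, Tyrobp, Ctss and Lyz2 as the 5 activation genes. The study asked how astrocytes of this region respond to alcohol dependence. Tagged ribosomes were purified from tissue punches (translating ribosome affinity purification) to give the IP library of a mouse. It is meant to be enriched in RNA on astrocyte ribosomes. RNA set aside before the purification gave the input library of the mouse, which holds RNA of the whole tissue. Dependent mice went through 5 rounds of chronic intermittent ethanol exposure combined with 2-bottle choice drinking (CIE-2BC), non-dependent mice were the 2BC controls, and naïve mice had no ethanol. All mice, the naïve ones included, carried the Tg(Aldh1l1-EGFP/Rpl10a)JD130Htz transgene on a B6;FVB background, in which regulatory sequence of the astrocyte gene Aldh1l1 drives a fluorescent ribosomal protein, so the tag is not meant to be in microglia. Their age was not given in the sources used here.

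The series holds 95 libraries of 49 mice in 6 batches. The 46 IP libraries came from 18 dependent, 13 non-dependent and 15 naïve mice, and the 49 input libraries from 18, 15 and 16 mice of the same treatments. Total counts ran from 14314236 to 27146790 in IP and from 12803108 to 23948193 in input. Batch I holds no naïve mouse, batch L no non-dependent mouse, and the only mouse of batch C, like that of batch G, was a dependent female. In the IP, 15 of 15 astrocyte markers were higher than in the input (median log2 difference 3.11) and 15 of 15 neuron markers were lower (median -1.29). The neuron markers still summed to a median of 4262 CPM in dependent IP, against 10157 CPM in dependent input, so the IP was not free of neuronal RNA. The 2 libraries of a mouse deviated together in 45 of 46 mice, while those of the non-dependent mouse K15 had a correlation of -0.26. The reason was not tested. The comparison of IP with input is therefore also given without that mouse, and between dependent and non-dependent mice the Lyz2 call in IP was lost without it (adjusted p = 0.0727) while those of Ctss in IP and P2ry12 in input held.

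Microglia hold a ramified, surveying state through signals from their neighbours, among them CSF1 and IL-34, which bind the receptor kinase Csf1r, and the neuronal chemokine Cx3cl1, which binds Cx3cr1. In this state they express P2ry12, a purinergic receptor that guides their processes, and Tmem119, a membrane protein used to tell them from blood-derived macrophages. When they respond to injury, lipids or inflammatory signals, they tend to express less of some of these genes and more of genes of phagocytosis and of lysosomes, a shift that partly depends on the lipid receptor Trem2 and its signalling adaptor Tyrobp. Aif1 encodes the actin-bundling protein Iba1, Ctss the lysosomal protease cathepsin S, which cleaves the invariant chain of MHC class II, and Lyz2 the lysozyme of macrophages. Lyz2, Csf1r, Cx3cr1, Aif1, Tyrobp and Ctss are also expressed by other macrophages and monocytes.

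The start-site regions of Ctss, Lyz2 and P2ry12 are shown because Ctss and Lyz2 were higher in the IP of dependent than of non-dependent mice and P2ry12 was lower in their input, as described further on. Each runs from 100 bases before the start to 10 bases from it, 5′ to 3′ on the strand of the gene, as RefSeq gives it for GRCm38.p6, with the start site as base 1 and no base 0. Capitals mark matches, on either strand, to GAAA, NN and GAAA in a row, a core bound by interferon regulatory factors, to GAGGAAGT, a core bound by the myeloid factor PU.1, and to GGAAGT, a shorter ETS-family core that lies inside it.
Ctss, chr3:95526686-95526795, plus strand: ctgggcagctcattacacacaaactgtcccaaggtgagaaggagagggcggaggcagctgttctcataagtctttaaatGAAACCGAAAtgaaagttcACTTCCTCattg
Lyz2, chr10:117282263-117282372, minus strand: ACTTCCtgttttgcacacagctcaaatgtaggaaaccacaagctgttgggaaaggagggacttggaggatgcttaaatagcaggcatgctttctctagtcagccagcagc
P2ry12, chr3:59262976-59263085, minus strand: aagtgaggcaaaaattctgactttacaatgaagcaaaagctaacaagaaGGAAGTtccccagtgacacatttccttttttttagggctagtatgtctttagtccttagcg
Of the 9 genes, 6 had an entry of 300 bases in the RefSeq table (Cx3cr1, P2ry12, Aif1, Trem2, Ctss and Lyz2). The first of these was in the entries of Ctss, at -21 to -12, and of Aif1, and in 3.44% of all 32851 entries. GAGGAAGT was in that of Ctss alone among the 6, across the start site, and in 3.20% of all entries. GGAAGT was in those of Ctss, Lyz2 and P2ry12, and in 23.8% of all. TTCNNNGAA, a core bound by STAT factors, was in none of the 6 and in 8.30% of all. These are matches of letters and not sites of binding.

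The comparison of IP with input asked how the level of microglial RNA relative to the rest of the library differed between them. It does not measure an amount of RNA removed. All 9 genes were lower in IP (edgeR, 46 mice, mouse as a block, adjusted p at or under 0.05), where 45% of the 21743 genes tested were lower, 33.6% were higher and 78.5% differed in either direction. Their median log2 difference was -1.01, against -0.16 over all genes tested. In dependent mice, mean log2 CPM was 4.08 in IP and 4.92 in input over the homeostatic genes, and 4.32 and 5.40 over the activation genes. It was 5.45 and 6.59 over oligodendrocyte markers, 2.28 and 2.67 over their precursor markers, and 3.26 and 4.14 over endothelial and mural markers. Without TMM scaling the median of all genes was -0.33, and the 9 genes ran from -1.75 to -0.87. Levels are given in CPM, the counts of a gene scaled by the TMM-adjusted library total. Per kilobase of exon, the order in IP was Ctss (48.4 CPM per kb), Tyrobp (28.4), Aif1 (12), Lyz2 (8.02), P2ry12 (7.29), Tmem119 (4.93), Cx3cr1 (4.36), Csf1r (3.16) and Trem2 (2.32). In input, Tyrobp (86.1) and Ctss (85.6) stood at the top and differed by far less than their spread (SD 40.0 and 35.6), followed by Aif1 (31), Lyz2 (14.3), P2ry12 (11.7), Tmem119 (9.98), Cx3cr1 (8.37), Csf1r (5.70) and Trem2 (5.46). Neighbours in the IP order differed by less than the larger of their SDs, except Tyrobp and Aif1. In the input order the same held, except between Ctss and Aif1, between Aif1 and Lyz2 and between Cx3cr1 and Csf1r. None of the 9 genes was at 0 in any library, so RNA of each was measurable in every IP. Whether that RNA was on astrocyte ribosomes or came from other cells was not tested. As in all bulk RNA, fewer cells of a type and less RNA per cell cannot be told apart.

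Tyrobp, the adaptor that passes on signals from Trem2, was the most depleted. Its level averaged 18.9 ± 8.80 CPM in the IP libraries, against 57.5 ± 26.7 CPM in the input libraries (SD, 46 mice; log2 difference -1.59 ± 0.07 SE, adjusted p = 1.89e-30). It was lower in the IP of 46 of 46 mice, as were Aif1 (-1.37 ± 0.07) and Trem2 (-1.27 ± 0.06). P2ry12 was the least depleted, with a mean of 18.6 ± 6.61 CPM in the IP libraries, against 29.7 ± 6.15 CPM in the input libraries (-0.71 ± 0.07, adjusted p = 8.45e-14), and was lower in the IP of 43 mice. Between them stood Tmem119 (-1.05 ± 0.07), Cx3cr1 (-1.01 ± 0.07), Ctss (-0.96 ± 0.05), Csf1r (-0.90 ± 0.06) and Lyz2 (-0.90 ± 0.08), each lower in at least 44 mice. Averaged over genes, the homeostatic genes were less depleted than the activation genes in 39 of 46 mice, by 0.30 ± 0.27 on the log2 scale (SD, range -0.32 to 0.90). Without mouse K15 all 9 genes were again lower in IP.

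A gene was higher in IP than in input in 9 cases, and 8 of them came from the dependent mice J05, I11, I02 and I07. Genes of 1 mouse are not independent of each other, and dependent mice were 18 of the 46 mice. The share of all genes that were higher in IP in these mice is not given here. In J05 the genes higher in IP were Csf1r (log2 difference 0.35), Ctss (0.25), Lyz2 (0.24) and Cx3cr1 (0.06). In dependent mice of batch I, P2ry12 was higher in the IP of I11 (0.76), I02 (0.61) and I07 (0.16), and Lyz2 in that of I11 (0.04). The remaining case was Tmem119 in the non-dependent mouse K15 (0.10). The mean difference over the 9 genes was -0.97 ± 0.39 in 18 dependent mice, -1.13 ± 0.18 in 13 non-dependent mice and -1.18 ± 0.17 in 15 naïve mice (SD). The spread was widest in dependent mice, which ran from -1.76 to -0.16, and these ranges overlapped.

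**Figure D1:**
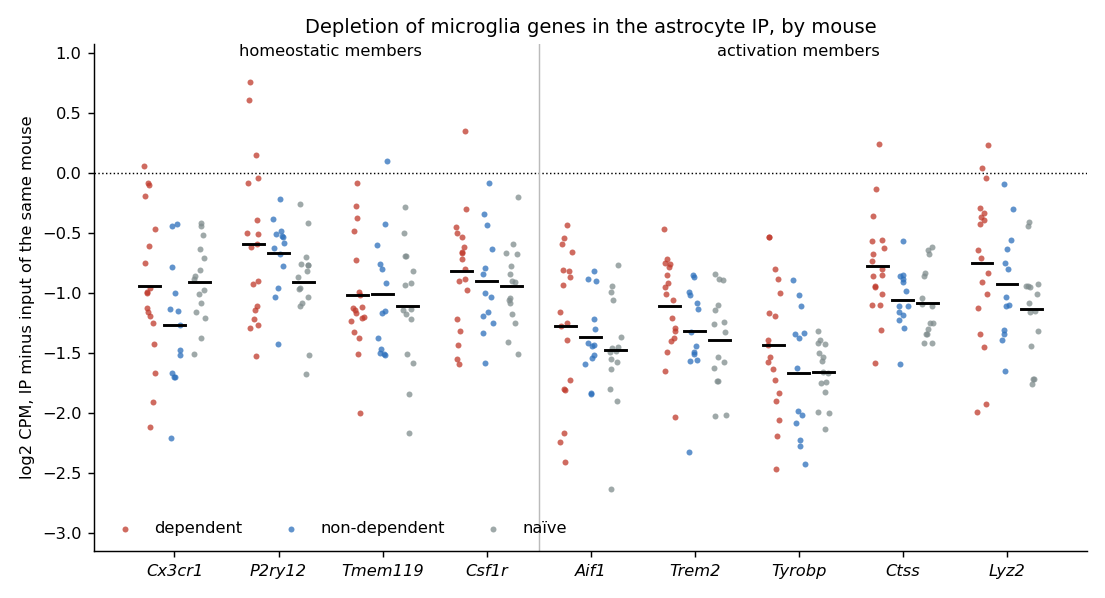
Log2 difference between IP and input of the same mouse (vertical axis, log2 CPM) for each of the 9 genes, with 1 point a mouse and dependent, non-dependent and naïve mice side by side; bars are means. Nearly all points lie below 0, and those above 0 are dependent mice except 1 non-dependent mouse at Tmem119.

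Most other microglia genes were lower in IP too, where 45% of all genes were lower and 33.6% higher. Of 20 further microglia genes, 18 were lower in IP and 2 were higher (median -0.98), among them the complement genes C1qb (-1.30 ± 0.05), C1qc (-1.28 ± 0.05) and C1qa (-1.25 ± 0.05). One of the exceptions was Itgb5, an integrin subunit (2.03 ± 0.05). Genes of disease-associated microglia split, with 10 of 20 higher and 7 lower, and the highest were Apoe (3.05 ± 0.04), Axl (3.04 ± 0.04), Cd63 (2.51 ± 0.04) and Cd9 (1.79 ± 0.05), which astrocytes also express. Of 6 ligands of the receptors among the 9 genes, 3 were higher and 3 lower in IP. Of 8 myeloid transcription factors, 5 were lower, among them Spi1, the gene of PU.1 (-1.01 ± 0.10), and 2 were higher. Of 12 signalling partners downstream of Trem2, Tyrobp and Csf1r, 8 were lower, 2 higher and 2 did not pass.

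Dependent mice were then set against non-dependent mice, which also drank ethanol. In IP, Ctss and Lyz2 rose, 2 of the 9 genes, where 1.54% of the 19979 genes tested changed in either direction and 1.1% rose. None of the 4 homeostatic genes passed the test. The median log2 difference was 0.43 over the 9 genes, 0.60 over the 5 activation genes and 0.27 over the 4 homeostatic genes, against 0.0021 over all genes tested. At an unadjusted p under 0.05 there were 5 genes (Ctss, Lyz2, Tyrobp, Csf1r and Aif1). The share of all genes at that looser threshold is not given here, so the 5 cannot be set against the 1.54%.

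Ctss had 28.7, 65.7 and 336 CPM (lowest, median and highest) in the IP of 16 dependent mice, 29.2, 49.3 and 60.5 CPM in 13 non-dependent mice and 33.5, 51.3 and 64.6 CPM in 15 naïve mice. The groups overlapped, and the dependent mice spread upwards. The highest values were those of I02 (336 CPM), J05 (210.5 CPM) and I11 (168 CPM), all above every non-dependent and naïve mouse. The adjusted difference between dependent and non-dependent mice was 1.01 ± 0.26 on the log2 scale (SE, edgeR, adjusted p = 0.0336). Within batches it was 0.98 in I (7 against 7 mice), 0.76 in J (4 against 3) and -0.38 in K (2 against 3). In batch K, dependent mice had 41.5 and 43.2 CPM and non-dependent mice 49.3, 56.1 and 60.5 CPM, so there the groups did not overlap and the dependent mice were the lower. These were 2 against 3 mice, and the share of all genes without overlap in that batch is not given here. Without batch I the difference was 0.58 (adjusted p = 0.48). The call was also lost without batch J (0.0796) or L (0.108), with limma voom (0.73, adjusted p = 0.0984), with no batch term and in batches J and K alone. It was lost too when any 1 of 8 mice was left out (I02, I03, I06, I08, I11, I16, J05 or J11, highest adjusted p 0.0823).

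Lyz2 had 4.42, 9.98 and 46.1 CPM (lowest, median and highest) in dependent IP, 2.75, 5.98 and 16.9 CPM in non-dependent IP and 7.15, 9.61 and 13.7 CPM in naïve IP. Again the groups overlapped, and I02 (46.1 CPM) and J05 (32.6 CPM) were the highest. The difference between dependent and non-dependent mice was 1.07 ± 0.29 (adjusted p = 0.0461), with 1.25, 0.76 and -0.43 in batches I, J and K. The median of naïve mice was close to that of dependent mice, and the non-dependent median was the lowest. The call held in 18 of the 44 fits that left out 1 mouse and in DESeq2 (adjusted p = 0.0157), but not in limma voom (0.113), with library totals in place of TMM (0.0511), with no batch term (0.0912) or without batch J (0.0986) or L (0.112). The difference was 0.53 without batch I (adjusted p = 0.688) and 0.43 in batches J and K alone (adjusted p = 0.885). Lyz2 has a near-identical paralog, Lyz1, which had 26 counts over all libraries against 26415 of Lyz2, and how reads matching both were counted was not given.

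The other activation genes did not pass. Tyrobp had 9.47, 18.3 and 49.6 CPM (lowest, median and highest) in dependent IP and 8.21, 13.7 and 30.8 CPM in non-dependent IP (0.53 ± 0.19, adjusted p = 0.18). Aif1 had 6.30, 17.5 and 63.2 CPM in dependent IP and 6.85, 13.3 and 30.3 CPM in non-dependent IP (0.60 ± 0.24, adjusted p = 0.249). Trem2 differed by 0.19 ± 0.16. Of the homeostatic genes, Csf1r had 8.39, 19.7 and 62.8 CPM in dependent IP and 11, 16.3 and 23 CPM in non-dependent IP (0.43 ± 0.17, adjusted p = 0.222). Csf1r shares 873 bp of exon with Hmgxb3 on the other strand, which had 11256 counts against 47442 of Csf1r, and the use of strand in counting was not given. Cx3cr1 differed by 0.34 ± 0.20, Tmem119 by 0.20 ± 0.20 and P2ry12 by -0.06 ± 0.18. These differences leaned on single mice. Without I02 they were 0.32 for Tyrobp, 0.30 for Aif1, 0.03 for Trem2, 0.27 for Csf1r, 0.05 for Cx3cr1 and -0.26 for P2ry12, and without J05 that of Tmem119 was 0.10. Every one of these ranges of dependent mice reached further up than that of non-dependent mice and overlapped it.

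**Figure D2:**
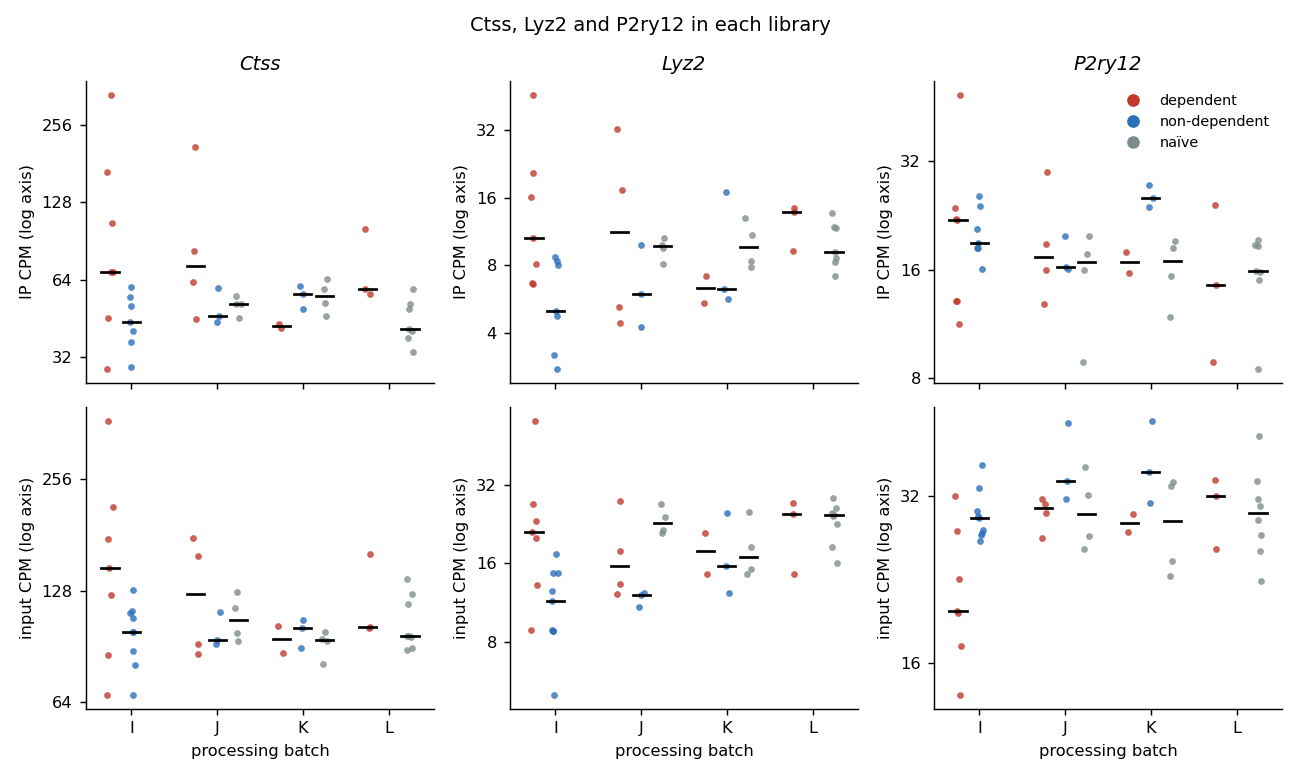
Level of Ctss, Lyz2 and P2ry12 (CPM, vertical axes on a log scale) in every IP library (upper row) and input library (lower row) of batches I to L, with dependent, non-dependent and naïve mice side by side; bars are medians. In IP, the highest Ctss and Lyz2 points are the dependent mice of batches I and J, while the 2 dependent mice of batch K lie below the others of that batch in Ctss and among the lower ones in Lyz2.

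In the input of dependent against non-dependent mice, P2ry12 fell, the only one of the 9 past the test, where 0.355% of the 19691 genes tested changed in either direction and 0.0457% fell. It had 14, 27.6 and 34.3 CPM (lowest, median and highest) in 16 dependent mice, 26.6, 31.1 and 43.8 CPM in 15 non-dependent mice and 22.5, 29.9 and 41.1 CPM in 16 naïve mice. The lowest values were those of dependent mice of batch I. That group ran from 14 to 32 CPM, against 26.6 to 36.4 CPM in the non-dependent mice of that batch, which overlapped it. Its highest mice, I15 (27.7 CPM) and I02 (32 CPM), were above the dependent mouse L29 (25.7 CPM). In batch K, dependent mice had 27.5 and 29.7 CPM and non-dependent mice 31.1, 35.3 and 43.8 CPM, with no overlap. This was 2 against 3 mice, and the share of all genes without overlap there is not given here. The difference was -0.39 ± 0.09 (adjusted p = 0.0336), with -0.48, -0.27 and -0.34 in batches I, J and K. It was -0.04 ± 0.10 between dependent and naïve mice, where P2ry12 did not pass, and 0.36 ± 0.11 between non-dependent and naïve mice (adjusted p = 0.267). It passed in DESeq2 (adjusted p = 0.0135) and limma voom (0.0288). The call was lost without batch I, J or K (adjusted p = 0.936, 0.127 and 0.0929) and in 10 of 47 fits that left out 1 mouse. It was also lost with no batch term and in batches J and K alone. It shares 9 bp of exon with Med12l on the other strand.

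The activation genes were not called in this comparison. Lyz2 had 8.93, 20.5 and 56.4 CPM (lowest, median and highest) in dependent input, 5.02, 12.4 and 24.9 CPM in non-dependent input and 14.5, 23.3 and 28.5 CPM in naïve input (dependent minus non-dependent 0.75 ± 0.19, adjusted p = 0.0704). DESeq2 called it (adjusted p = 0.012). Ctss had 67.0, 114 and 369 CPM in dependent input, 67.1, 99.2 and 129 CPM in non-dependent input and 81.1, 96.7 and 137 CPM in naïve input (0.50 ± 0.15, adjusted p = 0.205). Aif1 differed by 0.50 ± 0.17 and Csf1r by 0.31 ± 0.10, both at an unadjusted p under 0.05 and short of the threshold. Without I02 the differences were 0.52 for Lyz2, 0.33 for Ctss, 0.32 for Aif1 and 0.20 for Csf1r. The median over the 9 genes was 0.21, with 0.50 over the activation genes and 0.10 over the homeostatic genes. The median over all genes tested in input is not given here.

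The differences in IP and in input were set against each other in the mice with both libraries. The difference between dependent and non-dependent mice was larger in IP than in input for 0 of the 9 genes in edgeR (1 at an unadjusted p under 0.05), where 0.0923% of 21659 genes passed. That gene was Ctss, with an excess of 0.39 ± 0.12 in IP (p = 0.00335, adjusted p = 0.31). P2ry12 had 0.29 ± 0.16. The corresponding count between dependent and naïve mice was also 0 (2 at an unadjusted p under 0.05, Trem2 and Ctss). There 0.356% of genes passed in either direction, 0.162% with a higher and 0.194% with a lower difference in IP. Between non-dependent and naïve mice it was 0, with 0 at an unadjusted p under 0.05, where 0% of genes passed. The same counts were 0 with library totals in place of TMM and without the mouse block.

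**Figure D3:**
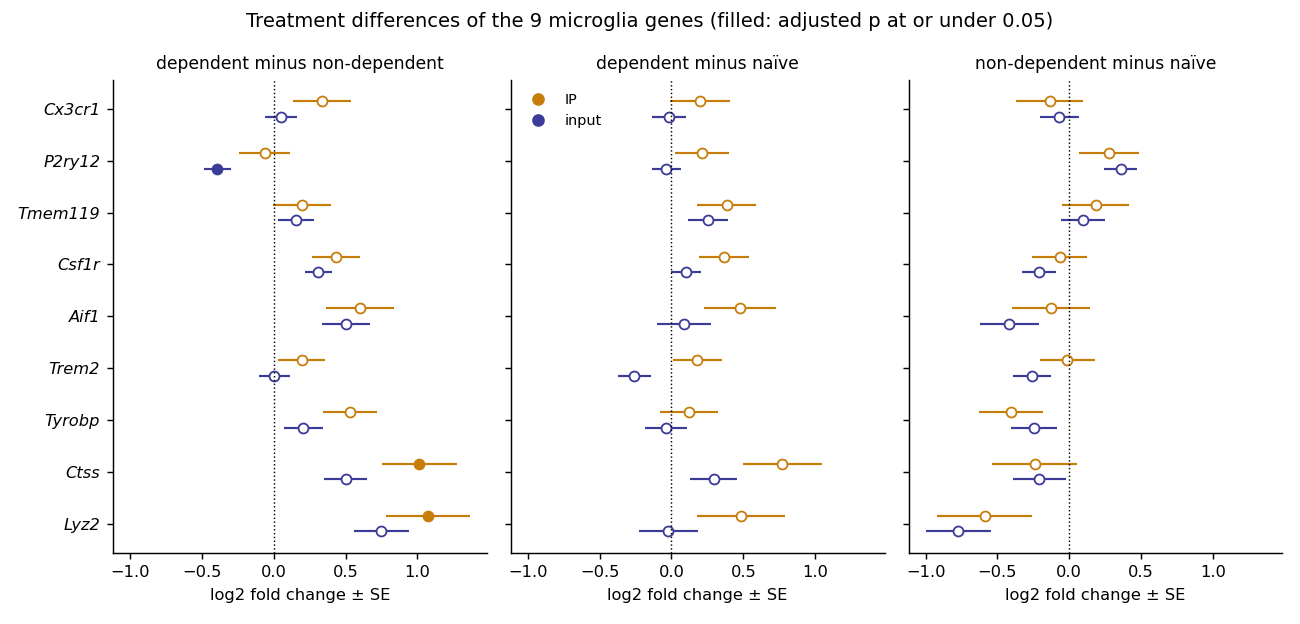
Log2 difference between treatments (horizontal axis, with SE) of each gene in IP and in input, for dependent minus non-dependent, dependent minus naïve and non-dependent minus naïve mice. Filled points passed the test (adjusted p at or under 0.05): Ctss and Lyz2 in IP and P2ry12 in input, all between dependent and non-dependent mice.

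Against naïve mice, none of the 9 genes passed in dependent IP (edgeR 0, DESeq2 0, limma voom 0, and 2 at an unadjusted p under 0.05), where 4.67% of genes did, 2.81% higher and 1.86% lower. Ctss had the largest difference, 0.77 ± 0.27 (adjusted p = 0.104), with 0.72, -0.37 and 0.66 in batches J, K and L. Csf1r had 0.37 ± 0.18. In dependent input, likewise, 0 genes passed by the 3 tools and 1 had an unadjusted p under 0.05 (Trem2, -0.26 ± 0.12), where 2.38% of genes passed, 1.42% higher and 0.965% lower. A missed threshold does not show that the levels were alike. Trem2 had 13.4, 25.7 and 38.7 CPM (lowest, median and highest) in dependent input, 13.6, 25.1 and 32 CPM in non-dependent input and 19.3, 32.7 and 38.5 CPM in naïve input, and all 3 groups overlapped.

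Between non-dependent and naïve mice, 0 of the 9 genes passed in IP (edgeR, DESeq2 and limma voom, with 0 at an unadjusted p under 0.05), where 0.44% of genes did. In input 0 passed by the same 3 tools, where 0.122% of genes did, 0.0609% higher and 0.0609% lower. At an unadjusted p under 0.05 there were 3 of the 9. These were Lyz2 (-0.77 ± 0.23, adjusted p = 0.225), Aif1 (-0.42 ± 0.20) and P2ry12 (0.36 ± 0.11). In batch J, Lyz2 had 10.9, 12.2 and 12.4 CPM in the input of non-dependent mice and 20.9 to 27 CPM in that of naïve mice, with no overlap. This was 3 against 4 mice, and the share of all genes without overlap there is not given here. In batch K it had 12.4, 15.6 and 24.9 CPM in non-dependent mice and 14.5 to 25.2 CPM in naïve mice, which overlapped. The dependent against non-dependent and the non-dependent against naïve comparisons use the same non-dependent libraries, so their values for Lyz2 and P2ry12 are not independent of each other.

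Whether a difference depended on sex was tested in the same fits. The female and the male difference between treatments differed for 0 of the 9 genes in each of the 6 comparisons (edgeR), where 0% of all genes passed. At an unadjusted p under 0.05 there was 1 gene in all, Csf1r in input between non-dependent and naïve mice (0.40 ± 0.19 higher in females).

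The balance of homeostatic and activation genes was taken per library as the mean log2 CPM of the 4 minus that of the 5 genes, a description with no test. Adjusted for batch and sex, it was 0.38 lower in the IP of dependent than of non-dependent mice, written as -0.38, and -0.04 against naïve mice. Non-dependent IP was 0.34 above naïve IP. In input the differences were -0.32, 0.09 and 0.41 in the same order. Within batch I, the balance averaged -0.07 ± 0.28 in 7 dependent and 0.38 ± 0.37 in 7 non-dependent IP libraries (SD). In batch J it averaged -0.55 ± 0.36 in 4 dependent, -0.36 ± 0.09 in 3 non-dependent and -0.47 ± 0.24 in 4 naïve IP libraries, which overlapped. Batch K gave -0.45 ± 0.11 in 2 dependent, -0.15 ± 0.30 in 3 non-dependent and -0.54 ± 0.09 in 4 naïve libraries. Non-dependent mice stood highest in each of these batches, and dependent and naïve mice were close.

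**Figure D4:**
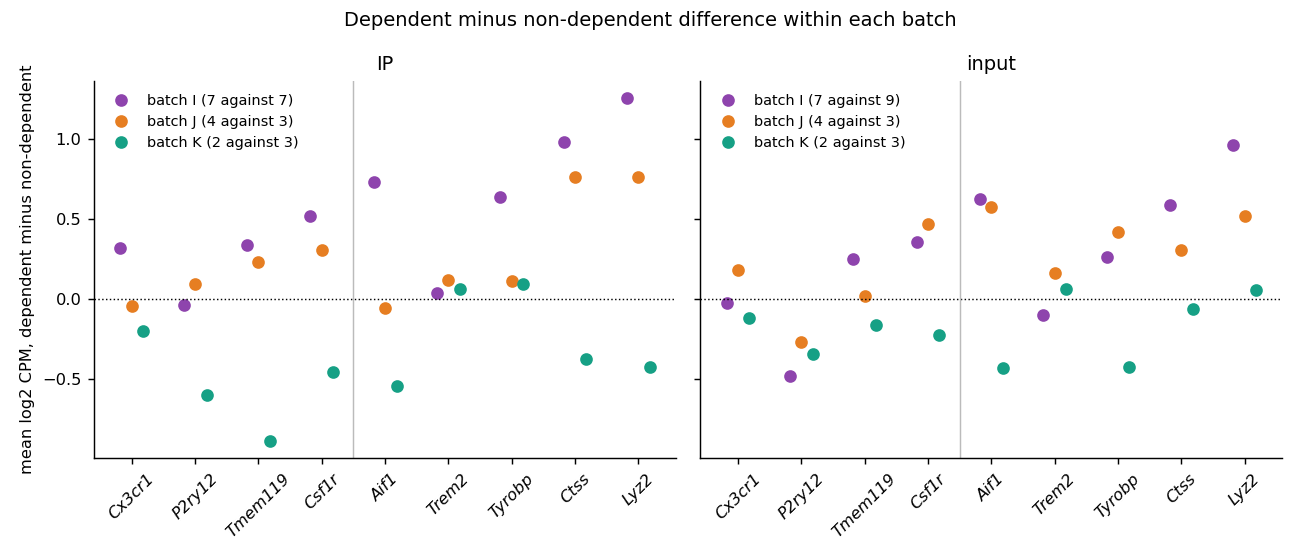
Difference between dependent and non-dependent mice in mean log2 CPM (vertical axis) within batches I, J and K (colours) for each of the 9 genes, in IP and in input. P2ry12 in input lies below 0 in all 3 batches, while Ctss and Lyz2 in IP lie above 0 in I and J and below 0 in K.

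The level of each gene in IP was compared with that of H2-D1, a heavy chain of MHC class I, in the same library. Treatment by sex means and batch were removed first (44 mice, permutation within batch, two-sided, p adjusted over all 19978 genes tested). By Pearson's r, 5 of the 9 genes had a positive relation that passed, where 0.741% of all genes did, and by Spearman's rho 4 of the 9 did, where 0.445% of all genes did. Ctss gave r = 0.84 (adjusted p = 0.00285) and rho = 0.78 (adjusted p = 0.00624). The unadjusted p of both was 1e-05, the smallest that the permutations can give. Without the 2 mice farthest from the median of H2-D1 after that removal (I11 and J05), r was 0.76. The mouse I02, which had the highest Ctss and Lyz2 in IP, was kept in. Within batches I, J, K and L, r was 0.88, 0.91, 0.78 and 0.47. Lyz2 gave r = 0.72 and rho = 0.69 (adjusted p = 0.00285 and 0.00624), with 0.63 without the same mice and 0.77, 0.86, 0.64 and 0.0016 within batches, so in L no relation was seen. Of the homeostatic genes, Tmem119 (r = 0.65, rho = 0.58, adjusted p = 0.00285 and 0.0296) and P2ry12 (r = 0.62, rho = 0.55, adjusted p = 0.0148 and 0.0337) passed by both measures. Csf1r passed by r (0.70, adjusted p = 0.00285) and not by rho (0.52, adjusted p = 0.079). Without I11 and J05 these r were 0.54, 0.60 and 0.61. Within batch L, r was 0.03 for Tmem119 and 0.06 for Csf1r but 0.66 for P2ry12. Aif1 (r = 0.57, adjusted p = 0.052), Tyrobp (r = 0.52, adjusted p = 0.141) and Trem2 (r = 0.51, adjusted p = 0.164) did not pass, nor did their rho (adjusted p = 0.374, 0.334 and 0.322). The sign of these 3 turned in batch L, where r was -0.41 for Aif1, -0.44 for Tyrobp and -0.21 for Trem2, and in batch K it was -0.0067, 0.03 and 0.20 for the same genes. Cx3cr1 had r = 0.08 (adjusted p = 0.931) and rho = -0.13 (adjusted p = 0.8), with -0.65 within batch L.

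**Figure D5:**
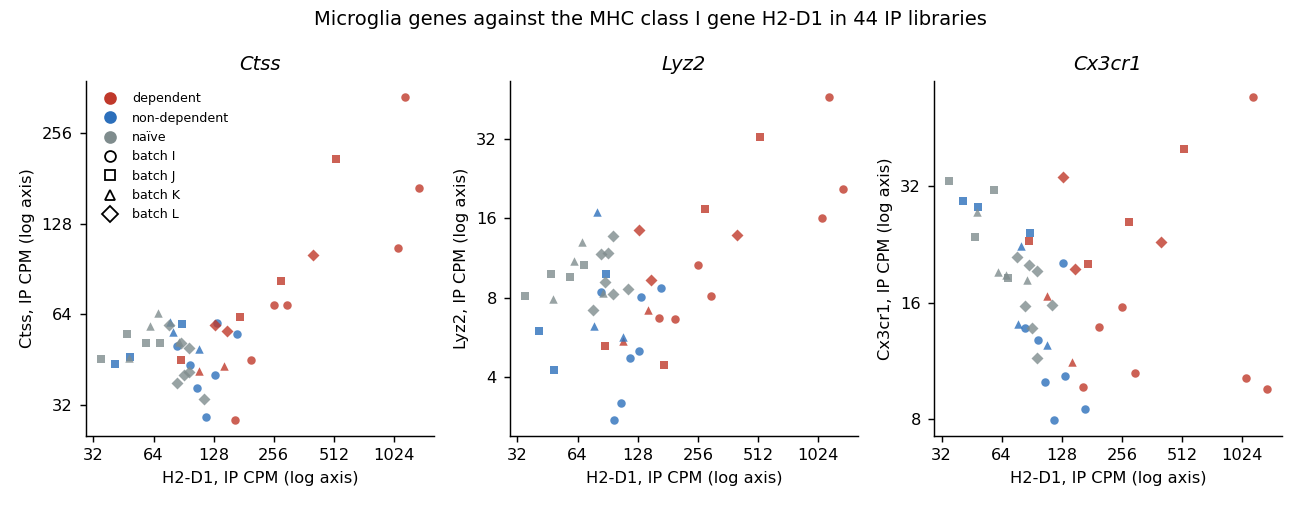
Level of Ctss, Lyz2 and Cx3cr1 (CPM, vertical axes) against that of H2-D1 (CPM, horizontal axes) in the same IP library of 44 mice, all axes on a log scale, with colours for treatment and symbols for batch. Ctss climbs with H2-D1 up to the dependent mice I02, I11 and J05, while Cx3cr1 shows no trend.

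The level of a gene in IP was also compared with its level in the input of the same mouse, with the same adjustment (44 mice, 18943 genes tested in both). By r, 8 of the 9 genes had a positive relation that passed, where 20.4% of all genes did, and by rho 5 of the 9 did, where 18.7% of all genes did. The median r over all genes was 0.21. Ctss gave r = 0.87 (adjusted p = 0.000267) and rho = 0.78 (adjusted p = 0.000325), with 0.81 without the 2 mice farthest from the median (I02 and I09) and 0.94, 0.78, 0.52 and 0.84 in batches I to L. Aif1 gave r = 0.72 and rho = 0.59 (adjusted p = 0.000267 and 0.00198), with 0.52 without I02 and I09. Lyz2 gave r = 0.68 and rho = 0.52 (adjusted p = 0.000267 and 0.00887), with 0.56 without I02 and I08 and 0.0068 within batch L. Tmem119 (r = 0.51, rho = 0.51) and Tyrobp (r = 0.55, rho = 0.44) passed by both measures too, with r of 0.39 and 0.41 without the 2 farthest mice. Trem2 (r = 0.46), Csf1r (r = 0.56) and Cx3cr1 (r = 0.46) passed by r (adjusted p = 0.0258, 0.00843 and 0.0481) and not by rho (adjusted p = 0.19, 0.25 and 0.261), and their r was 0.32, 0.24 and 0.22 without the 2 farthest mice. Batches differed for them. For Csf1r, r was 0.79, 0.09, 0.81 and -0.33 in batches I to L, and for Cx3cr1 it was 0.66, -0.35, 0.24 and 0.55. P2ry12 passed by neither (r = 0.35, adjusted p = 0.115, and rho = 0.32, adjusted p = 0.136), with r of 0.42 without I11 and L30 and between 0.28 and 0.45 within the batches.

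The dependent mice I02, J05 and I11, the highest in Ctss and in Lyz2 in IP, had 1159, 526 and 1359 CPM of H2-D1 there. I05 had 1067 CPM of H2-D1 but 16.1 CPM of Lyz2. The dependent mouse J09 had more Lyz2 (17.4 CPM) and less H2-D1 (277 CPM) than I05. MHC class I genes rose in dependent against non-dependent IP for 6 of 6 genes, and MHC class II genes for 4 of 5, where 1.1% of all genes rose. The mean log2 CPM of the class II list differed by 4.24, 3.46 and -0.19 within batches I, J and K, and that of the class I list by 2.28, 1.68 and 0.50. Markers of border macrophages and monocytes were low. Their 15 genes summed to 4.12 to 24.9 CPM in dependent IP (median 8.28), 3.31 to 12.5 CPM in non-dependent IP (median 5.94) and 5.07 to 11.6 CPM in naïve IP (median 8.67). Of these, 7 had a median of 0 CPM in IP (Lyve1, Cd209f, Ccr2, Ly6c2, S100a8, S100a9 and Chil3), and 0 of the 10 tested were called between dependent and non-dependent IP (edgeR, with 0 at an unadjusted p under 0.05). Their mean log2 CPM differed by 0.14 between dependent and non-dependent IP (adjusted for batch and sex), with 0.40, -0.34 and -0.10 within batches I, J and K. In input it differed by 0.33, with 0.52, 0.26 and -0.21 within the same batches, and the list summed to 10.4 to 30.3, 8.09 to 22.1 and 9.61 to 25.8 CPM in dependent, non-dependent and naïve mice. Of 9 T cell markers, Cd3e, Cd3d, Cd3g, Cd8a, Nkg7 and Ccl5 had a median of 0 CPM in IP, and the list summed to 14.4 to 37.2, 24 to 48.1 and 18.4 to 41.5 CPM in dependent, non-dependent and naïve IP. Their mean log2 CPM, which weights the low genes more, went the other way and was 0.45 higher in dependent than in non-dependent IP, with 0.55, 0.54 and 0.05 within batches I, J and K. In input it was 0.78 higher, with 0.94, 0.94 and 0.05 within these batches, and the list summed to 39.6 to 99.6, 26.6 to 99.6 and 34.9 to 82.2 CPM in dependent, non-dependent and naïve mice. Ccl5 rose in dependent against non-dependent IP (4.09 ± 1.02). The part of microglia, other macrophages and T cells in the differences of Ctss and Lyz2 was not tested, nor was that of astrocytes.

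Of the 20 further microglia genes, 3 rose in dependent against non-dependent IP and 17 did not pass (median 0.42), where 1.1% of all genes rose. Those that rose were C1qc (0.83 ± 0.19), C1qa (0.75 ± 0.17) and C1qb (0.69 ± 0.18), the subunits of complement C1q. Ly86, a partner of an innate immune receptor, had 0.94 ± 0.27 (adjusted p = 0.0567). Of 18 tested genes of disease-associated microglia, Cd52 (1.82 ± 0.43) and Cst7 (3.35 ± 0.90) rose and Lpl, the lipoprotein lipase, fell (-0.55 ± 0.11). Of the 6 ligands, Cx3cl1, the ligand of Cx3cr1, fell in IP (-0.37). Of 8 myeloid transcription factors, Irf8, an interferon regulatory factor that microglia need, rose (1.21 ± 0.30). Of 12 signalling partners, 0 were called (edgeR, 1 at an unadjusted p under 0.05), nor was any of 15 astrocyte markers (3 at an unadjusted p under 0.05), 12 oligodendrocyte markers (5) or 12 endothelial and mural markers (1). Of 15 neuron markers, Eno2 fell (-0.28 ± 0.07). In input, where 0.31% of all genes rose, C1qa (0.44 ± 0.11) and Cd52 (1.27 ± 0.29) did.

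The genes whose pattern was most like that of the 9 were ranked by their mean Spearman correlation with them, over batch-centred log2 CPM. In 44 IP libraries and 15260 genes, these were C1qb (0.58), C1qa (0.54), C1qc (0.53), Ly86 (0.52), Pld4 (0.50), Ifi27l2a (0.49), Adgre1 (0.48), Fcer1g (0.48), Crybb1 (0.47) and Siglech (0.44). In 47 input libraries and 15536 genes, they were Rps6 (0.49), Sec11c (0.49), Cd63 (0.48), Rps3 (0.47), Psme2 (0.47), Rps3a1 (0.47), Gm10131 (0.47), Rpl32l (0.46), Ndufv2 (0.46) and Fam213b (0.46). Among the 9 genes themselves, the 36 pairs had a median correlation of 0.44 in IP (0.09 to 0.71) and of 0.32 in input (-0.13 to 0.83).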

How the data were processed

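The values used were gene counts per library as the authors deposited them, in 1 table of whole numbers, not normalized. Per the submitters' processing notes, the tools were STAR 2.7.10b, Trimmomatic 0.39 and FastQC 0.11.9 and the build GRCm38. Per the labels' protocols, a Takara SMART-Seq PLUS kit was used. How reads were assigned to genes, and whether by strand, is not given in the sources used here, so reads of overlapping and antisense genes cannot be told apart. Of 55471 features, 55144 matched a symbol of the reference annotation, and no deposited column was left unused.

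The main test was edgeR 4.0.16's quasi-likelihood F test on these counts (R 4.3.3, TMM, filterByExpr with a minimum count of 10 and a minimum total of 15), with p-values adjusted over all genes tested (Benjamini-Hochberg) and a call at 0.05. IP and input libraries of batches I to L (44 and 47) were fitted apart, with means by treatment and sex plus batch terms, and each difference averages that of females and that of males. IP was compared with input over 46 mice with the mouse as a block. The design pairs the 2 libraries of a mouse. After group means were removed, their median correlation was 0.585 over 11519 genes, against 0.38 for other mice of the batch, and 45 of 46 pairs were over 0.1. Whether a treatment difference was larger in IP was tested in 44 mice. Standard errors came from the F statistic. Counts at an unadjusted p under 0.05 are given without the share of all genes at that threshold. The shares given are those at the adjusted threshold. CPM are counts scaled by TMM-adjusted library totals over all 95 libraries, and log2 CPM has a prior count of 2. Correlations used 100000 permutations within batch, with p adjusted over all genes tested. The fits were also run on simulated counts with known differences, drawn with the same dispersion for all genes and no batch effect, unlike the data.

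The alternatives were library totals without TMM, DESeq2 1.42.0, limma 3.58.1 (voom), no count filter, no batch term, batches left out, a term for neuron, oligodendrocyte and endothelial markers, and each mouse left out. The 9 genes, the lists and the tests were chosen with earlier results of these data known. Genes are named because they are among the 9, because they are among the 4 with the smallest p of a list, or because they are among the 10 most alike in pattern. Others are named as markers with a median of 0, as genes that share exon or reads with one of the 9, or, for H2-D1, as the gene compared with. The labels give each mouse a name of its own, and the IP and input library of a mouse share it.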

Additional observations from a re-analysis of the deposited data

Results flagged for a closer look

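Tyrobp in input moved in opposite directions in 2 batches between dependent and naïve mice. In batch J it had 83.3, 89.7, 89.8 and 128 CPM in dependent mice and 71.4, 76.2, 78.8 and 80.4 CPM in naïve mice, a difference in mean log2 CPM of 0.33. In batch K it had 51.3 and 57.5 CPM in dependent mice and 59.6, 87.8, 90.1 and 103 CPM in naïve mice, a difference of -0.62. In both batches the groups did not overlap, and the difference between the batches was not tested. These were 4 against 4 mice in J and 2 against 4 in K. The share of all genes that separated in this way is not given here. In the fit over batches I to L the difference of Tyrobp was -0.04 ± 0.15 (SE, edgeR, adjusted p = 0.963).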

How the results depend on the processing

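The 9 genes were lower in IP than in input under every alternative run, among them no replicate block (9 genes) and the fit without mouse K15 (chosen after seeing the data), so the block changed no call. Between dependent and non-dependent IP, 2 genes were called, as with DESeq2, without batch K and with the marker term, against 1 with library totals, 5 with no count filter, and 0 with limma voom, with no batch term, in batches J and K alone and without batch I, J or L. Leaving out 1 mouse gave 0 to 2. Between dependent and naïve IP, 0 became 2 with no count filter and 1 with no batch term or the marker term. Between dependent and non-dependent input, 1 became 2 with DESeq2 and 0 with no batch term, in J and K alone and without batch I or J, and 0 to 2 when 1 mouse was left out. Between non-dependent and naïve input, 0 became 1 with no batch term. No called direction turned. The balance of homeostatic and activation genes was taken again without Aif1, with library totals and with another split. That split set Cx3cr1, P2ry12 and Tmem119 against Tyrobp, Lyz2 and Trem2. Between dependent and non-dependent mice the difference in IP was -0.38, and -0.41, -0.38 and -0.42 in these alternatives. In input it was -0.32, and -0.29, -0.32 and -0.36. Between dependent and naïve IP, -0.04 became 0.06 with the other split.

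Over all genes, the 308 called between dependent and non-dependent IP became 492 with DESeq2, 684 with no count filter, 92 with no batch term, 0 in J and K alone and 3 without batch I. The 70 in input became 111, 119, 28, 0 and 0, and 41 without batch J. The 933 between dependent and naïve IP ranged from 235 (J and K alone) to 1447 (no count filter), and the 469 in input from 17 (J and K alone) to 707 (DESeq2). The 88 between non-dependent and naïve IP ranged from 15 to 481, and the 24 in input from 8 to 77. Without the replicate block, the 20 and 77 genes whose difference from non-dependent and from naïve mice was larger or smaller in IP became 0 and 12. The cause was not tested. No library was thinned to another depth, so what depth limits was not tested; none of the 9 genes was at 0 in any library. Dependent mice numbered 2 in batch K and 3 in batch L.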
